A study of Homo sapiens with 6 samples.

Results

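The genes described here mostly encode the eukaryotic translation initiation factors. These proteins bring the initiator tRNA, the messenger RNA and the ribosomal subunits together at a start codon. Some of the genes encode inhibitors or relatives of such factors that share the symbol. The genes were taken as the protein-coding rows of the expression table whose symbol begins with EIF and a digit from 1 to 6, without the eIF2 kinases (symbols beginning EIF2AK). The rule found 52 genes among 61895 rows. Of these, 47 averaged 1 TPM or more across the 6 libraries and entered the test. TPM is a scaled share of the measured transcripts, corrected for transcript length. The 5 that did not enter were EIF1AY, EIF2S3B, EIF4E1B, EIF4E3 and EIF4EBP3. All but EIF1AY and EIF2S3B belong to the cap-binding proteins and their inhibitors.

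The RNA came from PC3, a long-established line of human prostate cancer cells, after lentiviral delivery of short hairpin RNA and antibiotic selection of stable populations. In the 3 shCTSZ libraries the hairpin targeted CTSZ, the gene of the lysosomal protease cathepsin Z, and the 3 shControl libraries came from cells with a control vector (genotype label NC). All cells share the same line, vector system and selection. The labels do not say whether replicate libraries are separate cultures, nor how many hairpins against CTSZ were tried. The p-values therefore reflect only how much these libraries vary, which may be technical variation.

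Initiation proceeds in steps. eIF2 carries the initiator tRNA to the small ribosomal subunit and is recharged with GTP by eIF2B, eIF3 is a large scaffold on that subunit, and eIF4F (the cap-binding protein eIF4E, the scaffold eIF4G and the helicase eIF4A) recruits the capped messenger. eIF1 and eIF1A guard start codon choice, eIF5 and eIF5B drive GTP hydrolysis and joining of the large subunit, and the 4E-BPs hold eIF4E away from eIF4G. Phosphorylation of the alpha subunit of eIF2 and control of the 4E-BPs by mTORC1 are the best known points of regulation.

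CTSZ itself held 90.6, 94.7 and 93.2 TPM in shControl and 21.7, 18.3 and 19.7 TPM in shCTSZ, so the target was lower in every library labelled as its knockdown. Mitochondrially encoded genes took 5.10% to 5.38% of TPM in shControl and 6.24% to 6.38% in shCTSZ. The part of this shift in the results below was not tested. Of the genes set as present in this line, KRT8, KRT18, VIM, CAV1 and CD44 were above 100 TPM in every library, and KRT19 was under 1 TPM in 5 of the 6. Of the genes set as low in it, KLK3 and TMPRSS2 were under 1 TPM in every library. The 12 markers of leukocytes, fibroblasts and endothelium summed to 15.9 to 17.4 TPM in shControl and 12.6 to 16.0 TPM in shCTSZ. Among these 12, CD68 held most of the sum, 9 were under 1 TPM or at 0 in every library, and the fibroblast genes DCN and LUM were at 0 throughout.

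Of the 47 initiation factor genes, 10 rose and 11 fell in shCTSZ (limma on log2(TPM + 1), Benjamini-Hochberg adjusted p under 0.05 over 14874 genes). This is 44.7% of the members, beside 34.5% of all genes tested and 37.9% of the protein-coding ones. The shares called higher and lower were 19.8% and 14.7% over all genes, and 23.3% and 14.6% over protein-coding genes. These splits moved with the scaling. Under median-of-ratios scaling 6 members rose and 13 fell, with the counts of all genes higher in shCTSZ and all genes lower in shCTSZ at 2463 and 2661, against 2950 and 2185 in the main test. Groups did not overlap for 27 of the 47 members (14 above, 13 below), where 50.3% of all genes (29.1% above, 21.2% below) and 54.7% of protein-coding genes (33.6% above, 21.1% below) did not overlap. The changes were small. No member moved by as much as 1.5-fold, a size reached by 11.9% of all genes and 7.71% of protein-coding genes, and the median absolute log2 fold change was 0.12 for the members and 0.22 for all genes. The median signed log2 fold change was 0.03 for the members and 0.04 for all genes. The median control level was 163 TPM for the members, 13.1 TPM for all genes and 18.2 TPM for protein-coding genes. The shares and fold changes above therefore compare genes of unlike level. In sum, the 52 members took 13590 ± 146 TPM in shControl and 13475 ± 100 TPM in shCTSZ (mean ± SD, n = 3 per group, as throughout), with overlapping groups.

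**Figure D1:**
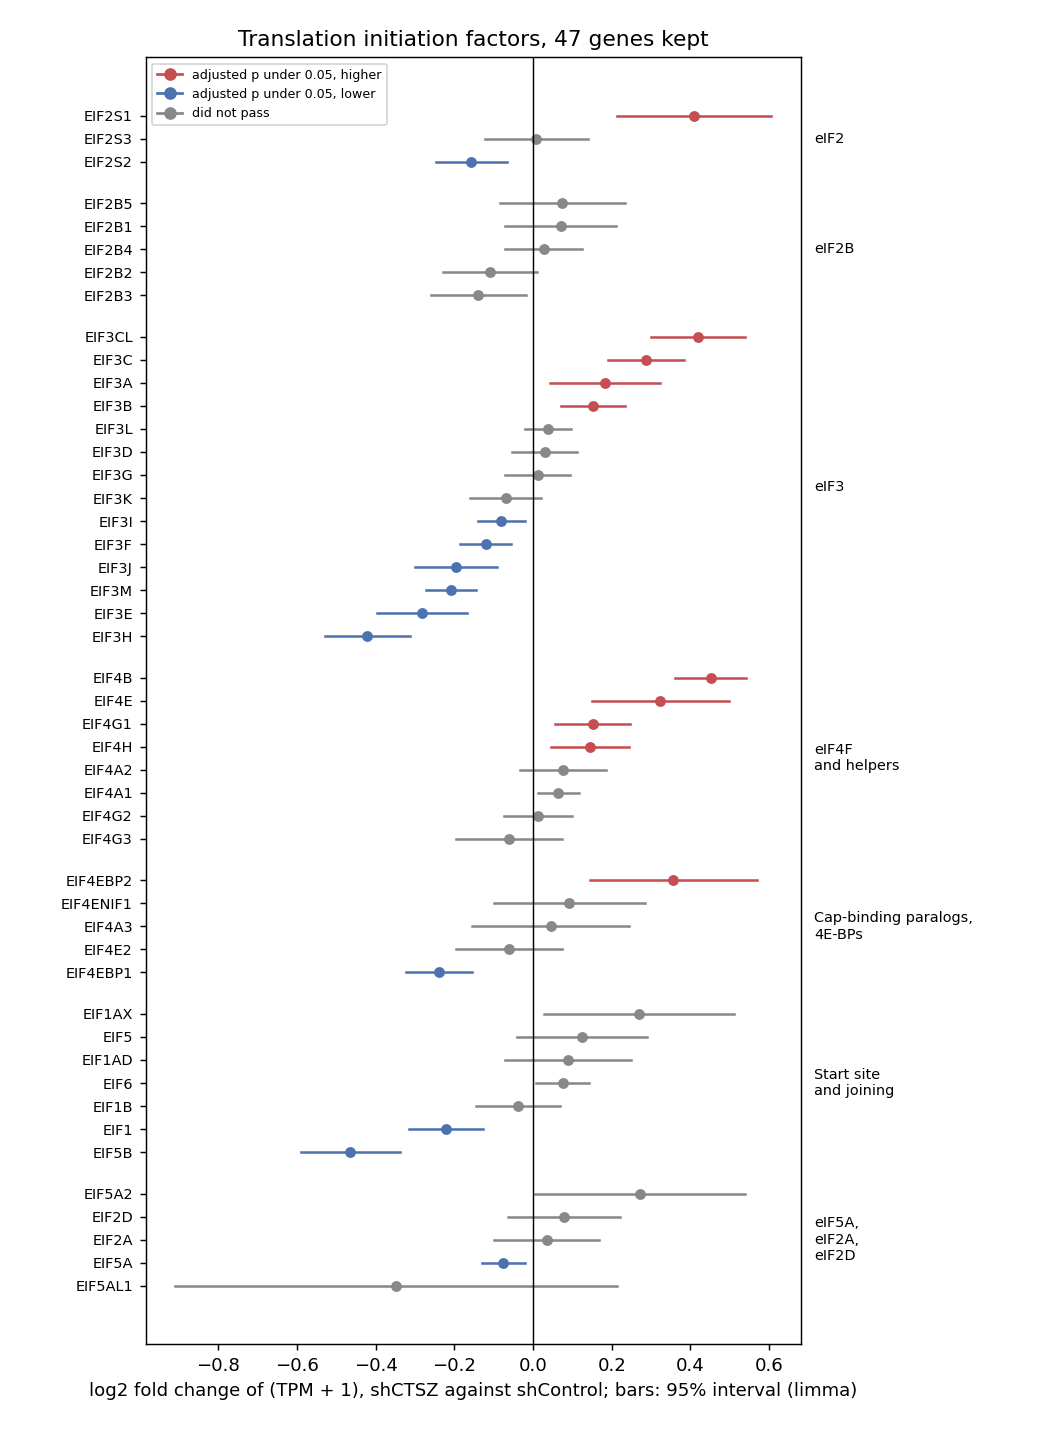
Log2 fold change of (TPM + 1), shCTSZ against shControl, for the 47 tested initiation factor genes grouped by complex, with points for the limma estimate and bars for its 95% interval. Red genes rose and blue genes fell at an adjusted p under 0.05. The estimates run from -0.46 (EIF5B) to 0.45 (EIF4B), eIF2B has no coloured member, and eIF3 has members on both sides.

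The complexes differed in how their members were distributed. Of the 3 eIF2 subunits tested 1 rose and 1 fell, of the 5 eIF2B subunits none passed, of the 14 eIF3 rows 4 rose and 6 fell (2 and 6 under median-of-ratios scaling), and of the 8 genes of eIF4F and its helpers 4 rose and none fell. The median log2 fold change was 0.01 for eIF2, 0.03 for eIF2B, -0.03 for eIF3 and 0.11 for eIF4F with its helpers. The differences between complexes were not tested, since the members were chosen as a list. Summed TPM of the eIF4F group was 4047 ± 110 in shControl and 4321 ± 38 in shCTSZ, with all shCTSZ libraries above. Most of this sum was EIF4A1, which did not pass (mean 2323 TPM in shControl and 2429 TPM in shCTSZ). The eIF3 rows summed to 3957 ± 13 and 3890.0 ± 19 TPM and the eIF2B subunits to 253 ± 6.0 and 245 ± 0.81 TPM, with all shCTSZ libraries below in both. The eIF2 subunits summed to 533 ± 23 and 524 ± 15 TPM with overlap.

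Within eIF2, the alpha subunit gene rose while the beta subunit gene fell. EIF2S1, which encodes the alpha subunit that the stress kinases phosphorylate (GRCh38 chromosome 14, 67359997 to 67386516, plus strand), held 85.6, 89.2 and 72.8 TPM in shControl and 106, 105 and 117 TPM in shCTSZ. Every shCTSZ library was above every control. Its estimated log2 fold change reached 0.41 (SE 0.083, adjusted p = 0.00958 by limma). EIF2S2, the beta subunit (chromosome 20, 34088298 to 34112332, minus strand), held 359, 366 and 344 TPM in shControl and 311, 332 and 316 TPM in shCTSZ, again without overlap (log2 fold change -0.16, adjusted p = 0.0190). The call of EIF2S2 was lost without shControl replicate 1 or 2, without shCTSZ replicate 1 or 3 (adjusted p 0.0591 to 0.0672) and without the variance trend (0.0760). EIF2S2 overlaps RALY on the other strand (254 TPM in shControl, 247 TPM in shCTSZ), which did not pass, so the division of reads is uncertain. EIF2S3, the gamma subunit that binds the initiator tRNA and GTP, did not pass (94.1 ± 5.4 and 94.6 ± 4.2 TPM, 95% interval of the log2 fold change -0.12 to 0.14). As levels per transcript length, EIF2S2 was 4.34 ± 0.33 times EIF2S1 in shControl and 2.92 ± 0.23 times in shCTSZ. The ratio of EIF2S3 to EIF2S1 was 1.15 ± 0.092 and 0.865 ± 0.066. Both ratios were lower in every shCTSZ library than in any control. These and the other ratios below were chosen after the levels were seen, and they are given as descriptions, with no test.

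eIF2B, the decameric exchange factor that reloads eIF2 with GTP, had no member past the threshold. EIF2B1 to EIF2B5 gave no call in limma, and 1 of the 5, EIF2B3, had an unadjusted p under 0.05. EIF2B3, of the catalytic part, held 38.4, 40.2 and 39.2 TPM in shControl and 36.1, 36.8 and 33.8 TPM in shCTSZ (log2 fold change -0.14, limma adjusted p = 0.0756). EIF2B2, of the regulatory part that senses phosphorylated eIF2, held 112, 121 and 108 TPM and 102, 108 and 106 TPM (log2 fold change -0.11, adjusted p = 0.136). In both genes every shCTSZ library lay below every control. EIF2B3 and EIF2B2 passed under median-of-ratios scaling (adjusted p = 0.0347 and 0.0341). EIF2B3 also passed under quantile normalisation (0.0423) and after removal of the GC and length trend (0.0207). The other 3 subunit genes, EIF2B1, EIF2B4 and EIF2B5, had overlapping groups, and the 95% intervals of the 5 log2 fold changes lay between -0.26 and 0.23. Summed eIF2 was 2.10 ± 0.086 times summed eIF2B in shControl and 2.14 ± 0.054 times in shCTSZ.

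eIF3, the largest of these groups with 14 rows, had 4 rises and 6 falls. The shares called were 71.4% in eIF3, 66.7% in eIF2, 50% in the eIF4F group and 0% in eIF2B. Over all genes tested the share was 34.5%, and over protein-coding genes 37.9%. The median control level was 283 TPM for eIF3, 94.1 TPM for eIF2, 228 TPM for the eIF4F group, 39.3 TPM for eIF2B and 13.1 TPM for all genes. These shares therefore compare groups of unlike level, and that of eIF2 rests on 3 tested genes. The eIF3 rises count the near-identical genes EIF3C and EIF3CL, described below, as separate rows. The human eIF3 subunits are known to fall into an a-b-g-i module, a c-d-e-k-l module and an f-h-m module, with the j subunit loosely attached. This division was taken from general knowledge after the values were seen, and it is used only to order the description.

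In the a-b-g-i module 2 genes rose and 1 fell. EIF3B, a scaffold subunit (chromosome 7, 2354086 to 2380745, plus strand), held 113, 116 and 112 TPM in shControl and 129, 124 and 126 TPM in shCTSZ (log2 fold change 0.15, adjusted p = 0.0144). EIF3A, the largest subunit (chromosome 10, 119033670 to 119080823, minus strand), held 108, 106 and 96.3 TPM and 111, 121 and 121 TPM, with all shCTSZ libraries above (log2 fold change 0.18, adjusted p = 0.0497). EIF3I, a small WD-repeat subunit, held 370.2, 374 and 369 TPM and 354, 352 and 347 TPM (log2 fold change -0.08, adjusted p = 0.0468). EIF3G, an RNA-binding subunit, did not pass (230.0 ± 6.4 and 232 ± 5.7 TPM), though it did with the GC and length trend removed (log2 fold change 0.16, adjusted p = 0.0179). The EIF3A call was lost under 11 of 17 alternatives (adjusted p 0.0509 to 0.449), among them leaving out shControl replicate 1, 2 or 3 or shCTSZ replicate 2 or 3 (0.0562 to 0.145), and its estimate turned to -0.03 when the GC and length trend was removed. The EIF3I call was lost under 12 of 17, including on leaving out any 1 of the 6 libraries (0.0593 to 0.107). The EIF3B call was lost under median-of-ratios scaling (0.0778), without the variance trend (0.0549) and with a replicate block (0.0547).

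In the c-d-e-k-l module the EIF3C rows rose and EIF3E fell. EIF3C and EIF3CL are near-identical genes on chromosome 16 (28688558 to 28735730, plus strand, and 28379579 to 28403879, minus strand), so how the authors' counting split reads between them is uncertain. EIF3C held 380, 391 and 360 TPM in shControl and 476, 458 and 446 TPM in shCTSZ (log2 fold change 0.29, adjusted p = 0.00267), and EIF3CL held 140, 139 and 155 TPM and 195, 197 and 188 TPM (log2 fold change 0.42, adjusted p = 0.00148). Summed, they went from 520, 530 and 515 TPM to 671, 656 and 634 TPM, 125% of the control mean, with no overlap. EIF3E (INT6), on chromosome 8 (108201216 to 108435333, minus strand), held 292, 283 and 265 TPM in shControl and 220, 239 and 231 TPM in shCTSZ (log2 fold change -0.28, SE 0.048, adjusted p = 0.00531). EIF3D, a cap-binding subunit, and EIF3K and EIF3L did not pass. EIF3K had the highest mean level per length of the eIF3 rows in both groups (587 ± 21 and 559 ± 19 TPM). The 95% intervals of EIF3D, EIF3K and EIF3L lay between -0.16 and 0.11.

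All 3 genes of the f-h-m module fell. EIF3H (chromosome 8, 116642130 to 116766925, minus strand), a subunit with an MPN domain, held 202, 216 and 199 TPM in shControl and 149, 160 and 150 TPM in shCTSZ. Every shCTSZ library was below every control, and the mean was 74.5% of the control mean (log2 fold change -0.42, SE 0.046, adjusted p = 0.00101). EIF3M (chromosome 11, 32583798 to 32606262, plus strand), a PCI-domain subunit, held 294, 301 and 299 TPM and 257, 259 and 256 TPM (log2 fold change -0.21, adjusted p = 0.00187). EIF3F, the MPN-domain partner of EIF3H (chromosome 11, 7970251 to 8001862, plus strand), held 408, 402 and 416 TPM and 369, 377 and 381 TPM (log2 fold change -0.12, adjusted p = 0.0154). The EIF3F call was lost without the variance trend (0.0966) and with a replicate block (0.0519). EIF3J, the loosely attached subunit, held 168, 157 and 163 TPM and 135, 146 and 144 TPM (log2 fold change -0.20, adjusted p = 0.0139). EIF3H overlaps UTP23 on the other strand, which rose from 20.0 to 26.3 TPM, and reads of such pairs cannot be told apart where strand is not used.

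The levels of eIF3 rows were also compared within each library. EIF3A was 0.504 ± 0.029 times EIF3H in shControl and 0.768 ± 0.032 times in shCTSZ, with no overlap. The highest eIF3 row (EIF3K) was 5.69 ± 0.58 times the lowest (EIF3A) in shControl and 4.76 ± 0.41 times in shCTSZ. The groups barely separated, at 5.26 in shControl replicate 1 and 5.23 in shCTSZ replicate 1. Over all eIF3 rows the SD of the log2 level was 0.744 ± 0.012 in shControl and 0.715 ± 0.022 in shCTSZ, with overlap.

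**Figure D2:**
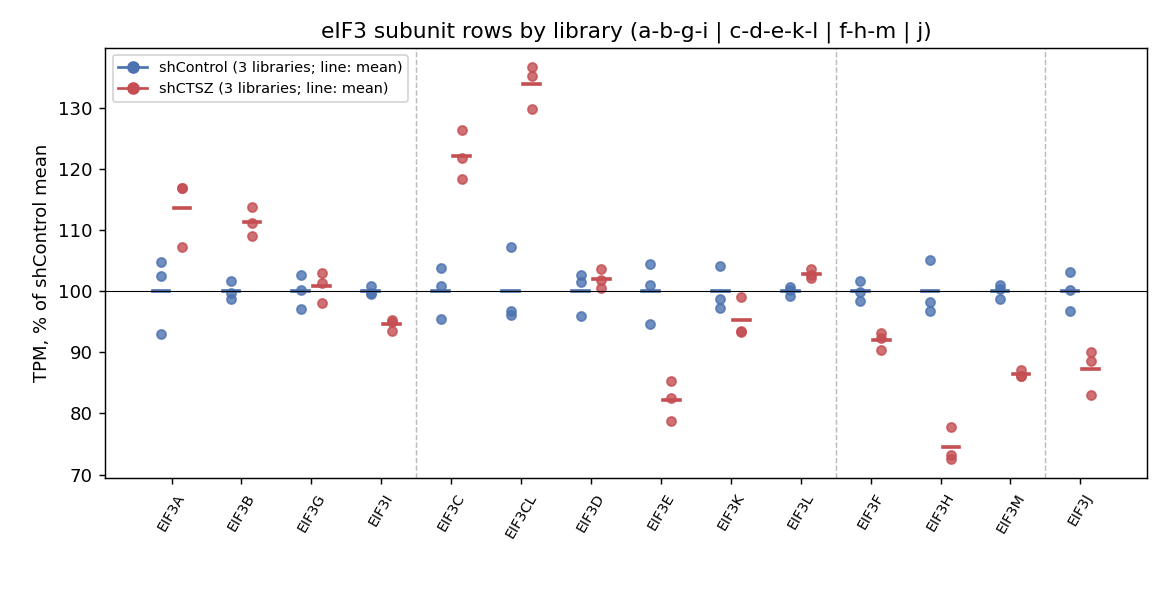
TPM of the 14 eIF3 rows in each library as a percentage of the shControl mean of the same gene; dashed lines divide the modules, points are libraries and short lines are means of 3. The EIF3C and EIF3CL points of shCTSZ lie at the top of the plot, and EIF3H, EIF3E, EIF3M, EIF3F, EIF3J and EIF3I have all shCTSZ points below all control points.

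In eIF4F and its helpers, 4 of 8 genes rose and none fell. By limma 5 of the 8 had an unadjusted p under 0.05, all of them higher. EIF4B, which stimulates the eIF4A helicase and is a target of S6 kinase (chromosome 12, 53006158 to 53042209, plus strand), held 265, 263 and 245 TPM in shControl and 345, 356 and 356 TPM in shCTSZ. No library of one group reached the other. The log2 fold change of 0.45 (SE 0.038, adjusted p = 4.39e-04) was the highest of the 47 members. EIF4E, the cap-binding protein (chromosome 4, 98871684 to 98930637, minus strand), held 35.6, 31.8 and 29.2 TPM and 40.3, 39.9 and 41.0 TPM (log2 fold change 0.32, SE 0.074, adjusted p = 0.0148). EIF4G1, the main scaffold (chromosome 3, 184314495 to 184335358, plus strand), held 203, 202 and 188 TPM and 219, 216 and 224 TPM (log2 fold change 0.15, adjusted p = 0.0253). EIF4H, a helicase helper related to EIF4B (chromosome 7, 74174245 to 74197101, plus strand), held 165, 171 and 157 TPM and 183, 185 and 178 TPM (log2 fold change 0.15, adjusted p = 0.0340). The call of EIF4E was lost without shControl replicate 2 or shCTSZ replicate 1 or 3 (adjusted p 0.0516 to 0.0593), that of EIF4G1 without any 1 of the shCTSZ libraries (0.0543 to 0.0809), and that of EIF4H on leaving out any library but shControl replicate 2 (0.0577 to 0.0993). Over the 17 alternatives that test against no change, EIF4G1 lost its call under 7 and EIF4H under 9, with adjusted p up to 0.0831 and 0.187. The count of 4 rises in this group became 1 without shCTSZ replicate 1, 2 without shCTSZ replicate 2 and 1 without shCTSZ replicate 3.

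The helicases did not pass. EIF4A1 was the highest member per transcript length, at 2318, 2371 and 2278 TPM in shControl and 2442, 2429 and 2416 TPM in shCTSZ (log2 fold change 0.06, 95% interval 0.01 to 0.12, adjusted p = 0.0588). It passed under quantile normalisation (log2 fold change 0.13, adjusted p = 0.0196), and it is also part of the readthrough gene SENP3-EIF4A1 (6.68 and 7.59 TPM). EIF4A2, its paralog, held 389 ± 21 and 410.0 ± 14 TPM. EIF4A1 took 85.7% ± 0.60 of the summed EIF4A1 and EIF4A2 level in shControl and 85.6% ± 0.42 in shCTSZ. The scaffold paralog EIF4G3 and EIF4G2 (DAP5, a scaffold without the eIF4E site) did not pass, with 95% intervals of -0.20 to 0.07 and -0.07 to 0.10.

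The 4 genes of this group that rose in the main test share a promoter feature that the rule did not use. Each has the E-box CACGTG, the site of MYC, MAX and USF factors, in the 250 bases before its RefSeq start (build GRCh38.p14), and EIF4A1, EIF4A2, EIF4G2 and EIF4G3 have none there. The stretches are printed 5′ to 3′ on the strand of the gene to show where the E-boxes lie, with CACGTG in capitals. They are chr12:53006206-53006455 (plus), chr4:98929134-98929383 (minus), chr3:184314356-184314605 (plus) and chr7:74174106-74174355 (plus). Parts of these windows lie inside the wider GENCODE spans given above, since genes can have several starts.
EIF4B: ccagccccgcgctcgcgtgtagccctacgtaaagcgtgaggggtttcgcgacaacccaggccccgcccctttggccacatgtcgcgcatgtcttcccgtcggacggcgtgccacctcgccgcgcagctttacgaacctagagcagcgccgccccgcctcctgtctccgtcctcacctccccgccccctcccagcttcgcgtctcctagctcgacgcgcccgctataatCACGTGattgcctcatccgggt
EIF4E: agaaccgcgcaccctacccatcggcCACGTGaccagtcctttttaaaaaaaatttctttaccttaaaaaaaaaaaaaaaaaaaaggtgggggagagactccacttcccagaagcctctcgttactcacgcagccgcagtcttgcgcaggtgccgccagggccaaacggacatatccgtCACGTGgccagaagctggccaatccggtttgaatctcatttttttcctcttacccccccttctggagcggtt
EIF4G1: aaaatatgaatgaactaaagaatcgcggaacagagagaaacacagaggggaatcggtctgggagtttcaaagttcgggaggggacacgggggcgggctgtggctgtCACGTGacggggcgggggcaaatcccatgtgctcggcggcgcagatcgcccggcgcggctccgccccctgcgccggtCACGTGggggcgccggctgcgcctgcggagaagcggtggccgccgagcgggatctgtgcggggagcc
EIF4H: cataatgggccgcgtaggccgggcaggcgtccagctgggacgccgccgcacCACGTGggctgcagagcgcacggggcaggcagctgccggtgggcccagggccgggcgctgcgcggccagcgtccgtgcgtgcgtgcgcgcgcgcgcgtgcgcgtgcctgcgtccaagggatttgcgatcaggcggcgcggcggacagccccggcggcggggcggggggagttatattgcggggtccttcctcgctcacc
The E-box lies 22 to 17 bases before the start in EIF4B and 199 to 194 bases before it in EIF4H. EIF4E has E-boxes 225 to 220 and 72 to 67 bases before the start, and EIF4G1 has them 144 to 139 and 67 to 62 bases before. CACGTG reads the same on both strands. It was found in 6.49% of 27305 RefSeq windows of this length, which include those of genes not tested here. Among all tested genes with a window, 905 had CACGTG and 9348 did not. Among the tested members with a window, 10 of 39 had it. Of these 10, 4 rose, 1 (EIF3F) fell, and EIF1B, EIF2B3, EIF3K, EIF4A3 and EIF5A2 did not pass. No window was found for EIF2S2, EIF3A, EIF3CL, EIF3E, EIF3G, EIF3H, EIF3L and EIF4EBP1. Over all tested genes with a window, 26.3% of 905 with CACGTG and 22.6% of 9348 without it were called higher, and 11.7% and 14.2% lower. In the eIF4F group the calls of EIF4E, EIF4G1 and EIF4H were lost in some fits without 1 library, as given above. This E-box was 1 of 9 motifs searched and was singled out after its matches were seen. Of the other 8, CCGGAAG (the ETS site, both strands) was in 7 of the 39 tested members with a window, 2 of which fell (EIF3I, EIF3M) and none of which rose, and in 8.82% of all windows. CCAAT (the NF-Y site) was in 16 of the 39, among them 4 of the 7 that fell and 1 of the 8 that rose, and in 33% of all windows. GGGCGG (the GC box) was in 25 of the 39 and in 42.3% of all windows. A match is only a description of the sequence.

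The inhibitors and paralogs of the cap-binding protein were uneven. EIF4EBP1, the main 4E-BP of these cells by level (chromosome 8, 38030341 to 38060365, plus strand), held 362, 359 and 383 TPM in shControl and 306, 318 and 311 TPM in shCTSZ, with no overlap (log2 fold change -0.24, SE 0.035, adjusted p = 0.00311). EIF4EBP2, also an eIF4E inhibitor, was far lower at 5.49, 5.73 and 4.93 TPM and rose to 6.80, 7.19 and 7.50 TPM (log2 fold change 0.36, adjusted p = 0.0215). With the GC and length trend removed, neither call held (adjusted p = 0.0871 for EIF4EBP1 and 0.319 for EIF4EBP2). The EIF4EBP2 call was also lost without shControl replicate 3 or shCTSZ replicate 2 or 3 (0.0586 to 0.0761), with no filter on low values (0.0564) and with a replicate block (0.0645). EIF4EBP1 was 11.5 ± 1.5 times EIF4E in shControl and 7.73 ± 0.22 times in shCTSZ, and every shCTSZ library was below every control. EIF4E2 (4EHP, a cap-binding repressor), EIF4ENIF1 (the 4E transporter) and EIF4A3 (a helicase of the exon junction complex) did not pass, with log2 fold changes of -0.06, 0.09 and 0.04.

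Among the factors of start site choice and subunit joining, EIF5B and EIF1 fell and none rose in limma, though EIF1AX and EIF6 were higher at an unadjusted p under 0.05. EIF5B, the GTPase that joins the large subunit (chromosome 2, 99337353 to 99401326, plus strand), held 47.6, 47.8 and 46.5 TPM in shControl and 31.9, 35.2 and 35.1 TPM in shCTSZ. The groups did not overlap, and the log2 fold change of -0.46 (SE 0.053, adjusted p = 0.00123) was the lowest of the 47. On the other strand EIF5B overlaps TXNDC9 (48.3 TPM in shControl, 48.8 TPM in shCTSZ) and REV1 (20.0 and 20.9 TPM), which did not pass. The division of reads is uncertain here too, since the strand setting is unknown. EIF1, a guard of start codon choice (chromosome 17, 41688885 to 41692668, plus strand), held 1635, 1551 and 1578 TPM and 1306, 1438 and 1347 TPM (log2 fold change -0.22, SE 0.040, adjusted p = 0.00644). Its paralog EIF1B, at 81.8 ± 2.4 and 79.6 ± 3.1 TPM, did not pass, and its share of the summed EIF1 and EIF1B level was 4.90% ± 0.044 and 5.52% ± 0.094, with no overlap. EIF1B passed with the GC and length trend removed (log2 fold change -0.16, adjusted p = 0.0179). EIF5, the GTPase activator of eIF2, held 247 ± 21 and 269 ± 16 TPM and did not pass (adjusted p = 0.207). EIF1 was 6.45 ± 0.43 times EIF5 in shControl and 5.07 ± 0.15 times in shCTSZ, without overlap. EIF1AX, the partner of EIF1, held 22.6, 30.4 and 25.3 TPM and 32.4, 30.3 and 31.7 TPM, with overlap (log2 fold change 0.27, adjusted p = 0.0812). It passed without shControl replicate 2 (log2 fold change 0.38, adjusted p = 0.0190). EIF6, which keeps the subunits apart until joining, held 500.3, 495 and 497 TPM and 540.5, 519 and 514 TPM. All its shCTSZ libraries were above the controls but it did not pass (adjusted p = 0.0809), except under quantile normalisation (0.00525) and after removal of the GC and length trend (0.00630). EIF1AD, placed in this group by its symbol only, did not pass.

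**Figure D3:**
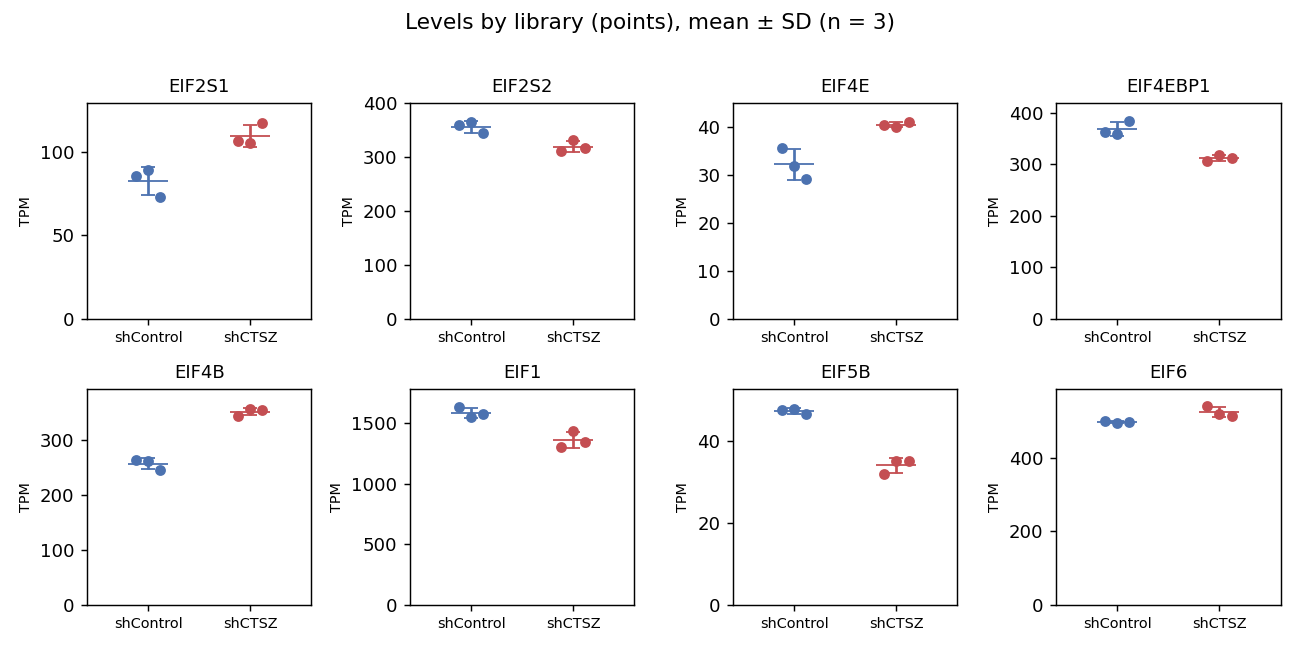
TPM by library for 8 members, with points for libraries and bars for mean ± SD (n = 3); each axis starts at 0. EIF2S1, EIF4E and EIF4B are higher in all shCTSZ libraries, EIF2S2, EIF4EBP1, EIF1 and EIF5B are lower in all of them, and EIF6 is higher in all of them without passing the test.

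Of the remaining factors, 1 of 5 passed. EIF5A, the hypusinated factor that also acts in elongation, held 1497, 1521 and 1523 TPM in shControl and 1450, 1408 and 1454 TPM in shCTSZ (log2 fold change -0.08, adjusted p = 0.0424). The EIF5A call was lost under 11 of 17 alternatives, including on leaving out any 1 library (adjusted p 0.0699 to 0.128), and after the GC and length trend was taken out the estimate was -0.0031 (adjusted p = 0.940). EIF5A overlaps GPS2 on the other strand, which also fell (178 to 149 TPM), and EIF5AL1 (1.86 to 3.33 TPM in shControl, 1.28 to 2.41 TPM in shCTSZ) is a near-copy of it, so the division of reads is uncertain. EIF5A2, its paralog, held 5.16, 4.15 and 4.77 TPM and 6.13, 6.27 and 5.21 TPM and did not pass (adjusted p = 0.105). EIF2A and EIF2D, which can bring the initiator tRNA without eIF2, did not pass, with 95% intervals of -0.10 to 0.17 and -0.06 to 0.22.

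**Figure D4:**
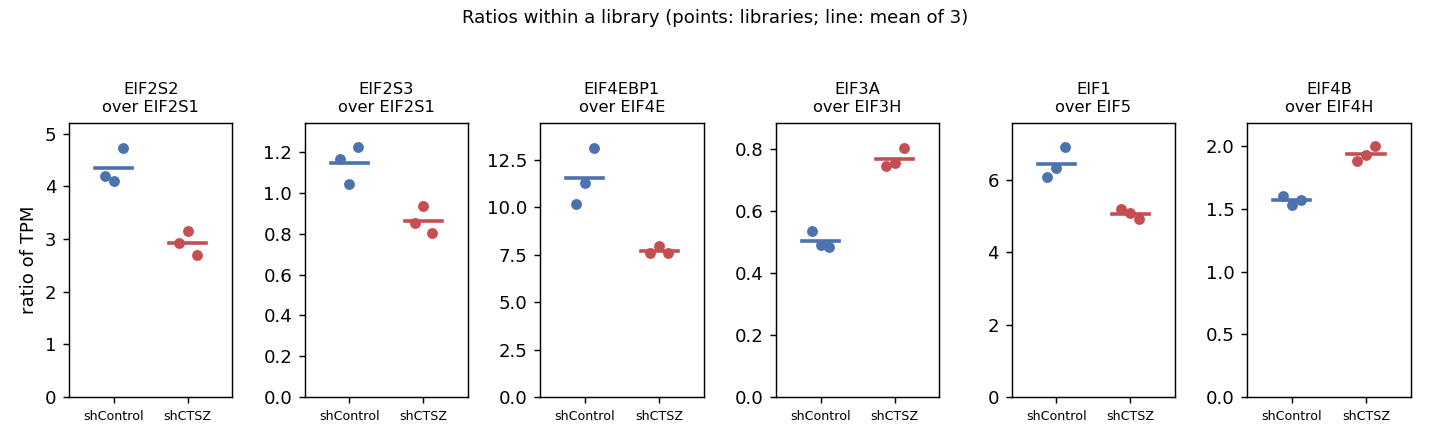
Ratios of TPM within each library for 6 pairs of members, with points for libraries and lines for means of 3; each axis starts at 0. The groups do not overlap in any of the 6 pairs, for example 4.34 against 2.92 for EIF2S2 over EIF2S1 and 1.57 against 1.94 for EIF4B over EIF4H.

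Calls, levels and position were set side by side for the members. The 11 genes that fell had a median control level of 356 TPM, the 10 that rose 129 TPM and the 26 that did not pass 87.9 TPM. The median GC content of their transcripts was 45.7%, 50.1% and 49.4%. Across the 47 members the log2 fold change had a Pearson r of 0.07 with GC content, whereas over the 14324 tested genes with a value r was -0.22. Genes share libraries and are not independent, so these are descriptions. All 3 members on chromosome 8 fell (EIF3E, EIF3H and EIF4EBP1). Of the 466 tested genes on that chromosome 10.7% fell and 21.2% rose, with a median log2 fold change of 0.07. Both members on chromosome 7 (EIF3B and EIF4H) and both on chromosome 16 (EIF3C and EIF3CL) rose. Of the tested genes on chromosomes 7 and 16, 19.0% and 15.5% rose. Each chromosome holds few members, so such runs are given as descriptions only.

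Of the 21 called members, 10 kept their call under all 17 alternatives that test against no change. They are EIF2S1, EIF4B and the near-identical EIF3C and EIF3CL, which rose, and EIF1, EIF3E, EIF3H, EIF3J, EIF3M and EIF5B, which fell. The direction of each of the 21 was kept under these alternatives, apart from EIF3A with the GC and length trend removed.

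Genes that act on these factors were counted from 3 lists, to be read beside the 34.5% of all genes called (19.8% higher, 14.7% lower). The shares called were 66.7%, 46.7% and 47.6% in the order below. Of 18 eIF2 kinases, phosphatases and stress-response targets 5 rose and 7 fell. DDIT3, a transcription factor of that response, went from 208 ± 3.5 to 136 ± 4.4 TPM, and PPP1R15A (GADD34), which directs a phosphatase to eIF2 alpha, from 392 ± 5.6 to 285 ± 8.1 TPM. PPP1CA, a catalytic subunit of that phosphatase, also fell (361 ± 7.3 to 290.5 ± 6.8 TPM), and the heme-regulated eIF2 kinase gene EIF2AK1 rose from 41.3 ± 1.9 to 54.2 ± 2.2 TPM. Of 32 regulators of the cap, the poly(A) tail and mTORC1 and scanning helpers, 30 were tested, and 9 rose and 5 fell. MKNK2, a kinase of eIF4E, went from 114, 103 and 110 TPM to 51.1, 57.8 and 61.2 TPM (log2 fold change -0.93, limma adjusted p = 3.58e-04), while its paralog MKNK1 did not pass (19.5 ± 1.4 and 20.6 ± 0.78 TPM). ABCE1, a ribosome recycling factor, rose from 17.4 ± 1.7 to 31.5 ± 0.45 TPM, PAIP2, an inhibitor of the poly(A)-binding protein, fell from 193 ± 4.2 to 158 ± 3.6 TPM, and the mTORC1 inhibitor gene DDIT4 fell too (log2 fold change -0.79). Of 22 elongation, termination and mitochondrial translation factors, 21 were tested, and 6 rose and 4 fell. EEF1A2, an elongation factor paralog, fell from 503 ± 22 to 381 ± 3.3 TPM, whereas GFM1, a mitochondrial elongation factor, rose from 19.9 ± 2.0 to 32.8 ± 2.6 TPM. ETF1, the release factor eRF1, rose from 151 ± 4.5 to 173 ± 4.4 TPM and MTRF1, a mitochondrial release factor, from 6.01 ± 0.19 to 8.21 ± 0.63 TPM. The median log2 fold changes of the 3 lists were 0.10, 0.04 and 0.02, beside 0.04 for all genes.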

How the data were processed

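Total RNA of 6 PC3 libraries (3 shControl, 3 shCTSZ) was sequenced. Per the submitters' processing notes, GRCh38.p13 was the build and RSEM and fastp were among the tools, with no versions. Which aligner, annotation release and strand setting were used is not given in the sources used here. Values are TPM as deposited by the authors, with the same total in each library, so the depth behind them is unknown and counting error cannot be stated. Columns were matched to samples by name. Some of the genes set as low in this line are not reported here.

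Symbols came from a gene ID table (61528 of 61895 rows had one), and gene types, positions, GC content and length from GENCODE 29 on GRCh38. GC content and length were medians over all listed transcripts of a gene, which may differ from the transcripts expressed in these cells. The removal of the GC and length trend used these values. Promoter stretches came from RefSeq (GRCh38.p14), matched by symbol for 44 of 52 members.

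The 14874 genes averaging 1 TPM or more were tested on log2(TPM + 1) with limma 3.58.1 (R 4.3.3). Group was the only term, the prior variance followed a trend in the mean, and p-values were adjusted by Benjamini-Hochberg with a threshold of 0.05. That scale understates the change of low genes. "Rose" and "fell" refer to this test. Complexes were described by counts and medians. Python 3.11.15, pandas 2.3.3 and matplotlib 3.10.9 made tables and plots. The members, lists and alternatives were chosen with earlier results of these data known. The rule for named genes was every member that passed, the 2 with the smallest adjusted p of a group without a call, and up to 4 that passed of each pathway list. The other members without a call, and MKNK1, were named outside this rule with their values known, so that each member is accounted for.

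The fit was tested on simulated data for this comparison (5 runs, 14874 genes, 200 changed). It recovered 34.4%, 68.8%, 89.6% and 99.2% of genes changed 1.25-, 1.5-, 2- and 4-fold, and 5.6% of calls were false. The changed genes were drawn only from those above a floor of mean level, so the recovered shares do not cover the lowest tested genes. Genes were drawn independently and far fewer were changed than in the data.

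The alternatives were pseudocounts of 0.1 and 5, no filter, a filter at 5 TPM, quantile normalisation, median-of-ratios scaling, protein-coding genes only rescaled, removal of the trend over log2 length and GC content within a library (splines with 5 degrees of freedom, 14324 genes), no variance trend, weights per library, a replicate block, leaving out each library, and a test against a 1.5-fold change.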

Additional observations from a re-analysis of the deposited data

How the results depend on the processing

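The main counts were 10 rises and 11 falls among the members. Rises numbered 6 under median-of-ratios scaling, 6 without the variance trend, 6 with a replicate block, and 5 to 9 on leaving out 1 library. Falls numbered 13 under median-of-ratios scaling, 7 without the variance trend and 8 to 9 on leaving out 1 library. Against a 1.5-fold change no member was called in either direction (0 in eIF2, eIF3 and eIF4F), and 171 of all genes were (23 higher, 148 lower). Falls in eIF2 numbered 0 without the variance trend and 0 to 1 on leaving out 1 library. Falls in eIF2B, 0 in the main test, numbered 2 under median-of-ratios scaling, 1 under quantile normalisation and 1 after removal of the GC and length trend. Rises in eIF3 numbered 2 under median-of-ratios scaling, 2 without the variance trend and 2 with a replicate block. Rises in the eIF4F group numbered 2 with no filter, 2 under median-of-ratios scaling, 2 without the variance trend and 1 to 3 on leaving out 1 library. With the GC and length trend removed, the median log2 fold change of eIF2 was -0.0607, the median log2 fold change of eIF2B was -0.0216, the median log2 fold change of eIF3 was -0.0428 and the median log2 fold change of eIF4F with its helpers was 0.0536. Under median-of-ratios scaling these medians were -0.0412 for eIF2 (0.0082 in the main test), -0.0213 for eIF2B, -0.0789 for eIF3 and 0.0612 for the eIF4F group, and under quantile normalisation -0.0141 for eIF3. On leaving out 1 library the eIF3 median ran from -0.0451 (without shCTSZ replicate 1) to -0.0051 (without shControl replicate 3) and the eIF2 median from -0.0290 (without shControl replicate 3) to 0.0515 (without shControl replicate 1). With no filter the eIF2 median was -0.0102. EIF3A turned to -0.0346 with the GC and length trend removed. The cause of these shifts was not tested. Of 26 members without a call, 7 passed under at least 1 alternative. The numbers are those of the sample descriptions, since the titles number the shCTSZ libraries differently. Same-numbered libraries of the 2 groups did not deviate together (r of -0.09, -0.02 and -0.04 for numbers 1, 2 and 3), so the replicate block adds a number only and no pairing was assumed. Depth is unknown, and the rows of near-identical copies and of genes overlapping on the other strand are uncertain. Called members that overlap a tested gene on the other strand are EIF2S1, EIF2S2, EIF3B, EIF3C, EIF3H, EIF3I, EIF3J, EIF4B, EIF5A and EIF5B.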
